A study of Mus musculus with 11 samples.

Results

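Glutathione and antioxidant enzymes were followed as a set of 40 mouse genes. They cover glutathione synthesis, the glutathione transferases and peroxidases, the thioredoxin and peroxiredoxin systems, the superoxide dismutases with catalase, and NRF2 with its inhibitor KEAP1 and inducible targets. A gene was taken where the array annotation gave it as the only symbol of a probe set. By this rule 38 of the 40 genes were measured, with 41 of the 34760 probe sets of the table, and all 41 were among the 26038 probe sets tested, those above a log2 intensity of 6 in 2 or more arrays of some group. Prdx5 and Prdx6, which encode peroxiredoxins, had no probe set of their own and were not analysed here.

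Glutathione is a cysteine-containing tripeptide that cells use to reduce peroxides and to tag reactive compounds for export. Thioredoxin and the peroxiredoxins form a parallel thiol system, and superoxide dismutases turn superoxide into hydrogen peroxide, which catalase and peroxidases remove. The transcription factor NRF2, held in check by KEAP1, drives many of these genes in stressed cells, and p53 is known both to raise and to lower antioxidant genes depending on the stress.

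The study asked what the loss of p53, and of the long noncoding RNA Pint that p53 induces, does to gene expression in mouse embryonic fibroblasts (MEFs) after DNA damage. The cells were p53 LSL/LSL MEFs of mixed C57BL/6 and 129/SvJ background, in which a removable stop cassette silences p53. In all 4 groups p53 had been switched back on with AdenoCre (24 h, moi 5), and 24 h after transfection doxorubicin, a DNA-damaging drug, was given at 150 nM for 12 h. The groups were control siRNA (3 arrays), p53 siRNA (3), control ASO (2) and Pint ASO (3), an ASO being an antisense oligonucleotide. Each knockdown was therefore set against p53-restored, drug-treated cells that had received their own type of control oligonucleotide, and no untreated or p53-silent cells are among the arrays. The Pint ASO was a pool, so that effects of single oligonucleotides could not be told apart. Nothing in the labels says that the arrays of a group came from separate cultures, and the p-values measure only the spread between these arrays.

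All values are log2 intensities, and adjusted p-values come from limma with Benjamini-Hochberg adjustment over all probe sets tested. A gene is called higher or lower where its adjusted p is under 0.05. Arrays of a group correlated at 0.991 to 0.995 and no array stood apart. Lncpint, the gene of Pint, read 10.41 and 10.23 with control ASO and 8.60, 8.48 and 8.55 with Pint ASO, a level 29.2% of its control. With p53 siRNA it fell by 0.54 (SE 0.11, adjusted p = 0.00673). Its control siRNA arrays read 9.43, 9.88 and 9.53, and control ASO was higher than control siRNA by 0.71 (SE 0.12, adjusted p = 0.0137). The p53 gene itself was not analysed here.

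With Pint ASO 18 of the 38 measured genes fell and 3 rose, and the other 17 did not pass an adjusted p of 0.05. With p53 siRNA 7 fell, 4 rose and 27 did not pass. Across all probe sets tested, 19.1% were called with Pint ASO (8.49% higher and 10.7% lower) and 16.9% with p53 siRNA (7.97% higher and 8.96% lower). Against this background 47.4% of the measured antioxidant genes were called lower and 7.89% higher with Pint ASO, and 18.4% lower and 10.5% higher with p53 siRNA. The background counts probe sets, also those with several symbols or none, and was not matched to these genes in intensity. The median log2 change of the 38 genes was -0.20 with Pint ASO and -0.04 with p53 siRNA, against 0.004 and 0.005 over all probe sets. Their changes ran from -1.08 to 0.67 and from -0.69 to 0.56 and only that of Gstt1 with Pint ASO passed 2-fold. The count of 18 depended on single arrays and was 11 without control ASO replicate 1, and the 7 lower with p53 siRNA became 4 without control siRNA replicate 1 or p53 siRNA replicate 1 or 2.

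**Figure D1:**
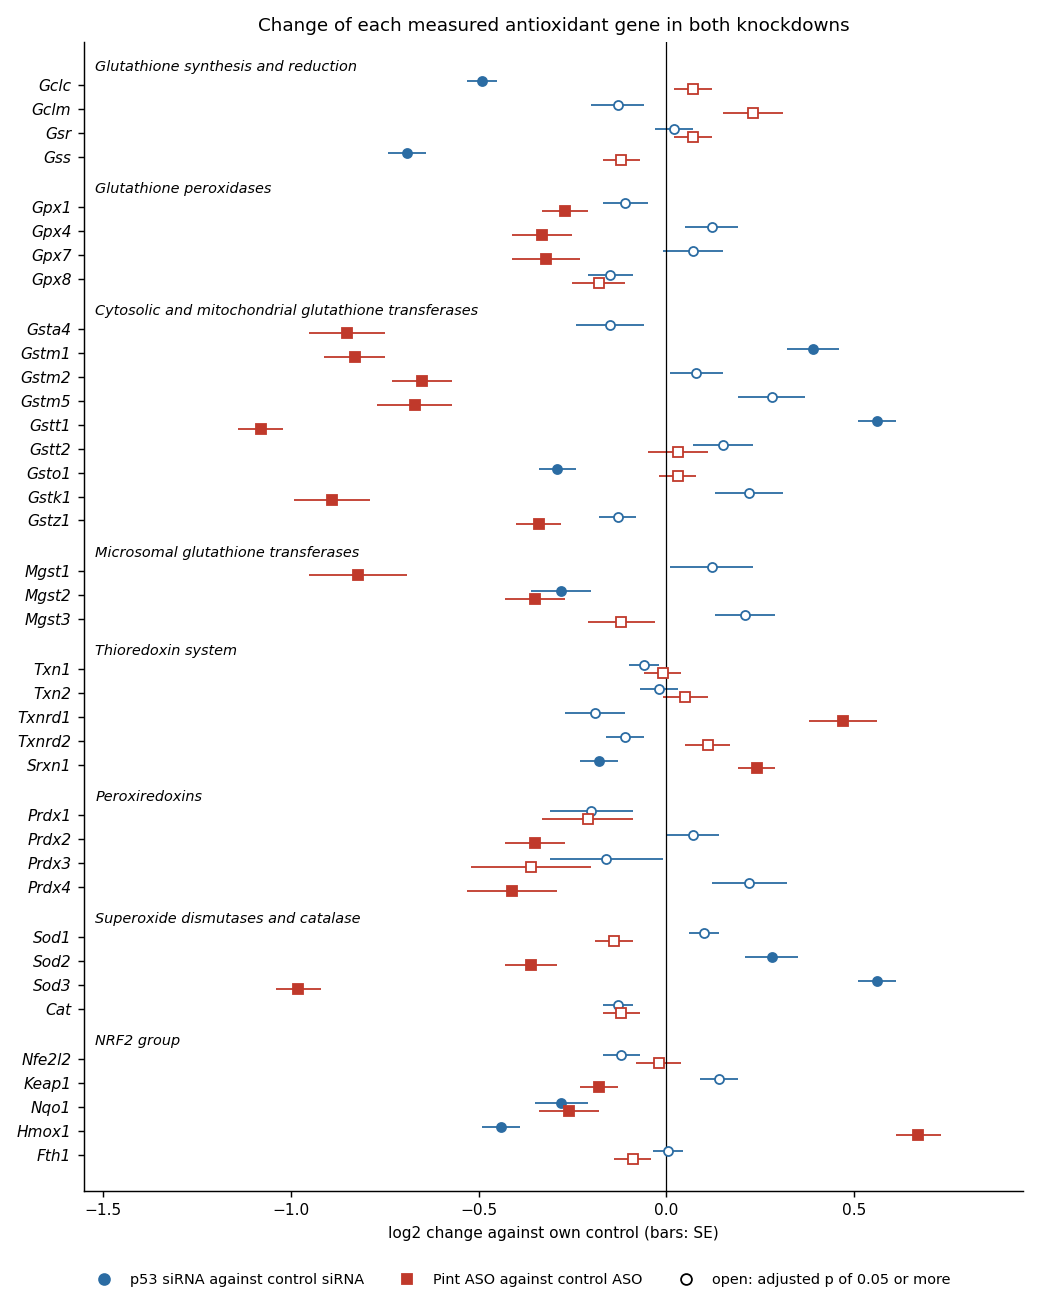
Log2 change of each of the 38 measured genes (x axis) by role (y axis), with p53 siRNA as circles and Pint ASO as squares. Bars are standard errors and filled symbols passed an adjusted p of 0.05. Sod3 and 7 of the 9 cytosolic and mitochondrial transferases lie left of 0 with Pint ASO, down to -1.08 for Gstt1, with Gstt2 and Gsto1 at 0.03, while Hmox1, Txnrd1 and Srxn1 lie to the right.

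Fibroblast markers differed between the groups too. Of 16 such markers, all tested, 12 fell with Pint ASO (median -0.48) and 8 rose with p53 siRNA (median 0.23), and no call went the other way in either comparison. Their summed intensity ran from 69210 to 71550 with Pint ASO against 84930 to 85020 in its control, and from 99010 to 99440 with p53 siRNA against 88090 to 90190. The part of these cell markers in the changes of antioxidant genes was not tested. In bulk RNA fewer cells of a type and less RNA per cell cannot be told apart. Between the control groups limma called none of the 16 markers at adjusted p under 0.05, and 9 were lower in control ASO at an unadjusted p under 0.05. Of 6 tested blood cell markers Cd68 fell with both p53 siRNA (-1.04) and Pint ASO (-0.47) and Cd14 with p53 siRNA (-0.51), while the other 4, Csf1r, Itgam, Lyz2 and Aif1, were not called and the defining Ptprc and Adgre1 were under the filter on low values. The summed level of these markers, 1292 to 1365 with p53 siRNA against 2071 to 2190 and 1659 to 1705 with Pint ASO against 2087 to 2095, rests mainly on Cd68. Endothelial markers summed to 906.5 to 948 with Pint ASO against 748.3 to 783.7, where Kdr was higher (0.77) and Tek lower (-0.17) of 6 tested.

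Of the 4 genes of glutathione synthesis and reduction 2 fell with p53 siRNA. With Pint ASO limma called 0, and 1 was higher and 1 lower at an unadjusted p under 0.05. Gss, glutathione synthetase, which adds glycine in the last step, read 11.12, 11.12 and 11.15 in control siRNA arrays and 10.46, 10.46 and 10.41 with p53 siRNA. It read 11.02 and 11.10 with control ASO and 10.90, 10.92 and 11.01 with Pint ASO. The p53 siRNA arrays lay far below all others, at 62.1% of their control (log2 change -0.69, SE 0.05, adjusted p = 1.1e-05), while Pint ASO gave -0.12 (SE 0.05, adjusted p = 0.15). Gclc, the catalytic subunit of the rate-limiting ligase, read 11.48, 11.44 and 11.50 with control siRNA, 10.96, 11.03 and 10.97 with p53 siRNA, 11.63 and 11.54 with control ASO, and 11.64, 11.68 and 11.64 with Pint ASO. Again only the p53 siRNA arrays were low, at 71.3% of control (-0.49, SE 0.04, adjusted p = 6.45e-05). With Pint ASO Gclc changed by 0.07 with an interval of -0.04 to 0.18.

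The other members of the branch did not pass the test in either knockdown. Gclm, the modifier subunit that partners Gclc, gave -0.13 with p53 siRNA (adjusted p = 0.276) and 0.23 with Pint ASO (adjusted p = 0.088). Its arrays read 11.98 and 11.81 with control ASO and 12.18, 12.17 and 12.02 with Pint ASO, all above the 11.13 to 11.41 of the 6 siRNA arrays. Gsr, which regenerates reduced glutathione, changed by 0.02 and 0.07, with 95% intervals of -0.08 to 0.12 and -0.05 to 0.19. The calls of Gss and Gclc held in each of the 21 alternatives tried.

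Most transferases, which couple glutathione to reactive compounds, fell with Pint ASO. Of 9 cytosolic and mitochondrial transferases 7 fell, with a median of -0.67 over the 9. Gstt1, a theta class enzyme, had the largest drop of all 38 genes. It read 10.60 and 10.70 with control ASO and 9.60, 9.56 and 9.53 with Pint ASO, or 47.2% of control (-1.08, SE 0.06, adjusted p = 1.11e-05). In siRNA arrays it went the other way, from 10.99, 10.89 and 10.97 to 11.46, 11.49 and 11.59, which is 1.48-fold higher (0.56, SE 0.05, adjusted p = 9.6e-05). The p53 siRNA arrays were thus the highest and the Pint ASO arrays the lowest of the 11, with no overlap between any knockdown and its control.

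Gstm1, Gstm2 and Gstm5 are mu class enzymes. Gstm1 read 10.95, 10.90 and 11 with control siRNA, 11.25, 11.38 and 11.40 with p53 siRNA, 10.70 and 10.93 with control ASO, and 9.95, 9.97 and 10.04 with Pint ASO. It rose 1.31-fold with p53 siRNA (0.39, SE 0.07, adjusted p = 0.0038) and fell to 56.3% with Pint ASO (-0.83, SE 0.08, adjusted p = 0.000137), the same order of groups as Gstt1. For Gstm2 the arrays read 9.89 and 10.00 with control ASO and 9.26, 9.32 and 9.30 with Pint ASO, against 10.21, 10.10 and 10.28 with control siRNA and 10.14, 10.30 and 10.39 with p53 siRNA. The Pint ASO arrays lay below all others, at 63.7% of control (-0.65, SE 0.08, adjusted p = 0.000613), and p53 siRNA gave 0.08 (adjusted p = 0.538).

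Gstm5 read 9.54 and 9.58 with control ASO and 8.80, 8.95 and 8.92 with Pint ASO, or 62.7% (-0.67, SE 0.10, adjusted p = 0.00125). Its siRNA arrays read 9.87, 9.52 and 9.78 and then 9.98, 10.07 and 9.96, a change of 0.28 that just missed the threshold (adjusted p = 0.0509). The mu class genes lie in 1 cluster and are close copies of each other, so that probes may read more than 1 of them, and their changes are not independent.

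Gstk1 and Gsta4 fell as strongly. Gstk1, the kappa class enzyme of mitochondria and peroxisomes, read 8.31 and 8.07 with control ASO and 7.27, 7.39 and 7.24 with Pint ASO, against 8.53, 8.33 and 8.57 and then 8.56, 8.72 and 8.79 in the siRNA arrays. That was 53.9% of control (-0.89, SE 0.10, adjusted p = 0.000416), with the Pint ASO arrays below all others. Gsta4, which clears the lipid peroxidation product 4-hydroxynonenal, read 9.79 and 9.71 with control ASO and 8.96, 9.00 and 8.74 with Pint ASO, against 9.73, 9.48 and 9.58 and then 9.34, 9.55 and 9.45 in the siRNA arrays. It stood at 55.3% (-0.85, SE 0.10, adjusted p = 0.000465), while p53 siRNA gave -0.15 (adjusted p = 0.339).

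The remaining transferases moved less. Gstz1, which also serves tyrosine breakdown, fell by 0.34 with Pint ASO (SE 0.06, adjusted p = 0.00307) and gave -0.13 with p53 siRNA (adjusted p = 0.134). Gsto1, an omega class enzyme, was the one transferase of this group to fall with p53 siRNA. It read 12.63, 12.54 and 12.61 with control siRNA and 12.28, 12.31 and 12.34 with p53 siRNA, against 12.55 and 12.53 with control ASO and 12.55, 12.64 and 12.55 with Pint ASO. Only the p53 siRNA arrays were low (-0.29, SE 0.05, adjusted p = 0.002), and Pint ASO gave 0.03 with an interval of -0.08 to 0.15. Gstt2, the theta class neighbour of Gstt1, was near the floor at 6.43 to 6.70 in all arrays and was called in neither comparison, with changes of 0.15 and 0.03.

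Of the 3 microsomal transferases, which sit in membranes, 2 fell with Pint ASO. Mgst1 read 10.14 and 10.02 with control ASO and 9.31, 9.46 and 9.02 with Pint ASO, against 10.48, 10.27 and 10.39 and then 10.36, 10.53 and 10.60 in the siRNA arrays. It stood at 56.8% of control with Pint ASO arrays that spread from 9.02 to 9.46 (-0.82, SE 0.13, adjusted p = 0.00201), and gave 0.12 with p53 siRNA (adjusted p = 0.56). Mgst2, which also makes leukotriene C4, was lower in both knockdowns. It read 7.62, 7.46 and 7.74 with control siRNA and 7.32, 7.23 and 7.44 with p53 siRNA (-0.28, SE 0.08, adjusted p = 0.0329), and 7.28 and 7.28 and then 6.93, 6.96 and 6.89 with the ASOs (-0.35, SE 0.08, adjusted p = 0.0174). The groups did not overlap in either case, but the p53 siRNA call was lost without control siRNA replicate 1 or 3, p53 siRNA 1 or 2, or Pint ASO 1 (adjusted p 0.0511 to 0.113). The Pint ASO call was lost without either control ASO array (0.076 and 0.0782). Mgst3 gave 0.21 (adjusted p = 0.0962) and -0.12 (adjusted p = 0.384).

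Of the 4 glutathione peroxidases measured, which reduce peroxides, 3 fell with Pint ASO. With p53 siRNA limma called 0, and 1 was lower at an unadjusted p under 0.05. Gpx1, the abundant cytosolic enzyme, fell by 0.27 (SE 0.06, adjusted p = 0.0165). Gpx4, which removes lipid hydroperoxides and guards against ferroptosis, gave -0.33 (SE 0.08, adjusted p = 0.0197) on its brighter probe set, where the control ASO arrays read 11.23 and 11.32 and the Pint ASO arrays 10.91, 10.99 and 10.92. On the other probe set of Gpx4 the change was -0.10 (adjusted p = 0.407) and the groups overlapped, so its probe sets disagree. Gpx7, an enzyme of the endoplasmic reticulum, fell by 0.32 (SE 0.09, adjusted p = 0.037), with control ASO arrays apart from each other at 8.19 and 8.54. Gpx8, of the same compartment, gave -0.15 and -0.18 (adjusted p = 0.151 and 0.107).

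These peroxidase calls were weak. The call of Gpx1 was lost without control ASO replicate 2 (change -0.18, adjusted p = 0.117) or Pint ASO 1 (0.0514). That of Gpx4 was lost without control ASO replicate 1 or 2 or Pint ASO 1 or 3 (0.0517 to 0.112). Gpx7 lost its call in 9 of the 11 fits that left out 1 array, and its change was -0.14 without control ASO replicate 2 (adjusted p = 0.205).

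In the thioredoxin system 2 of 5 genes rose with Pint ASO. Txnrd1, the cytosolic reductase that recharges thioredoxin, read 11.16 and 10.87 with control ASO and 11.49, 11.58 and 11.37 with Pint ASO, or 1.38-fold higher (0.47, SE 0.09, adjusted p = 0.00637). Its siRNA arrays read 10.78, 10.68 and 10.65 and then 10.52, 10.53 and 10.47, a change of -0.19 that did not pass (adjusted p = 0.148). All Pint ASO arrays lay above all others, and the control ASO arrays lay above the siRNA arrays. Srxn1, sulfiredoxin, which repairs overoxidised peroxiredoxins, read 11 and 10.91 with control ASO and 11.22, 11.21 and 11.16 with Pint ASO (0.24, SE 0.05, adjusted p = 0.0124). With siRNA it fell, from 10.70, 10.67 and 10.76 to 10.56, 10.56 and 10.47 (-0.18, SE 0.05, adjusted p = 0.032).

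The Srxn1 call with Pint ASO was lost without control ASO replicate 2 (adjusted p = 0.0865), and that with p53 siRNA was lost without any 1 of the 6 siRNA arrays (0.0507 to 0.117). The thioredoxin genes did not pass the test. Txn1, the cytosolic form, read 14.04 to 14.19 over all arrays. It changed by -0.06 and -0.01 with 95% intervals of -0.16 to 0.04 and -0.11 to 0.10. Whether changes are compressed at so high a level was not tested. Txn2, the mitochondrial form, changed by -0.02 and 0.05, and its reductase Txnrd2 by -0.11 and 0.11 (adjusted p = 0.238 and 0.273).

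Peroxiredoxins reduce hydrogen peroxide with thioredoxin. Of the 4 measured 2 fell with Pint ASO. With p53 siRNA limma called 0, and 0 passed even an unadjusted p under 0.05. Prdx2, a cytosolic enzyme, gave -0.35 (SE 0.08, adjusted p = 0.0132) and, on its other probe set, -0.37 (adjusted p = 0.0164). Prdx4, the form of the endoplasmic reticulum, gave -0.41 (SE 0.12, adjusted p = 0.0352) with control ASO arrays at 9.01 and 8.79 and Pint ASO arrays at 8.40, 8.67 and 8.40. Prdx1, cytosolic, gave -0.20 and -0.21 on 1 probe set and -0.24 and -0.35 on the other, and Prdx3, mitochondrial, -0.16 and -0.36. For both genes Pint ASO 3 was the lowest array, at 9.71 for Prdx3 against 10.19 and 10.22, and no change passed (adjusted p 0.166 or more). Without control ASO 1 or 2 the call of Prdx2 was lost (0.0565 and 0.0696). That of Prdx4 was lost without control siRNA replicate 3, p53 siRNA 2, control ASO 1 or Pint ASO 1 or 3 (0.0521 to 0.223).

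Of the 3 superoxide dismutases 2 rose with p53 siRNA and the same 2 fell with Pint ASO. Sod3, the secreted extracellular form, read 9.83 in all 3 control siRNA arrays and 10.32, 10.44 and 10.42 with p53 siRNA, or 1.47-fold higher (0.56, SE 0.05, adjusted p = 6.31e-05). With control ASO it read 9.77 and 9.84, close to control siRNA, and with Pint ASO 8.75, 8.84 and 8.86, or 50.5% (-0.98, SE 0.06, adjusted p = 1.19e-05). Each knockdown thus lay clear of its control on opposite sides. Sod2, the mitochondrial manganese enzyme, read 12.36, 12.28 and 12.39 with control siRNA and 12.58, 12.62 and 12.66 with p53 siRNA (0.28, SE 0.07, adjusted p = 0.017), and 12.14 and 12.05 and then 11.82, 11.79 and 11.59 with the ASOs (-0.36, SE 0.07, adjusted p = 0.0079).

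Groups did not overlap for Sod2 either. Its p53 siRNA call was lost without control siRNA replicate 2 or p53 siRNA 2 or 3 (adjusted p 0.0518 to 0.0643), and its Pint ASO call without control ASO replicate 1 (0.0622). Sod1, the cytosolic copper and zinc enzyme, gave 0.10 (adjusted p = 0.15) and -0.14 (adjusted p = 0.0644). Cat, catalase, gave -0.13 and -0.12 (adjusted p = 0.0826 and 0.118).

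Among NRF2 and its circle, Hmox1 had the largest change. Hmox1 encodes haem oxygenase, which breaks down haem and is induced by many stresses. It read 12.41, 12.33 and 12.39 with control siRNA and 11.85, 11.99 and 11.98 with p53 siRNA, or 73.9% of control (-0.44, SE 0.05, adjusted p = 0.000286). With control ASO it read 12.78 and 12.83 and with Pint ASO 13.47, 13.46 and 13.49, or 1.59-fold higher (0.67, SE 0.06, adjusted p = 7.71e-05). The 4 groups did not overlap, and p53 siRNA was lowest and Pint ASO highest.

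Nqo1, a quinone reductase often used as a readout of NRF2, was lower in both knockdowns. It read 10.63, 10.49 and 10.62 with control siRNA and 10.28, 10.29 and 10.35 with p53 siRNA (-0.28, SE 0.07, adjusted p = 0.0241), and 10.77 and 10.54 and then 10.38, 10.48 and 10.34 with the ASOs (-0.26, SE 0.08, adjusted p = 0.0489). The control ASO arrays were far apart. Leaving out 1 array ended the Pint ASO call in 8 of 11 fits, with a change of -0.14 without control ASO replicate 1 (adjusted p = 0.333), and the p53 siRNA call without control siRNA replicate 1 or 3 or p53 siRNA 1 or 2 (0.0724 to 0.0876). Nfe2l2, the gene of NRF2, changed by -0.12 (interval -0.23 to 0.00) and -0.02 (interval -0.16 to 0.11). Keap1 gave 0.14 (adjusted p = 0.0836) and -0.18 (SE 0.05, adjusted p = 0.041), and each of 8 fits without 1 array lost this call (0.0575 to 0.202). Fth1, the ferritin heavy chain that stores iron, gave 0.003 and -0.09.

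**Figure D2:**
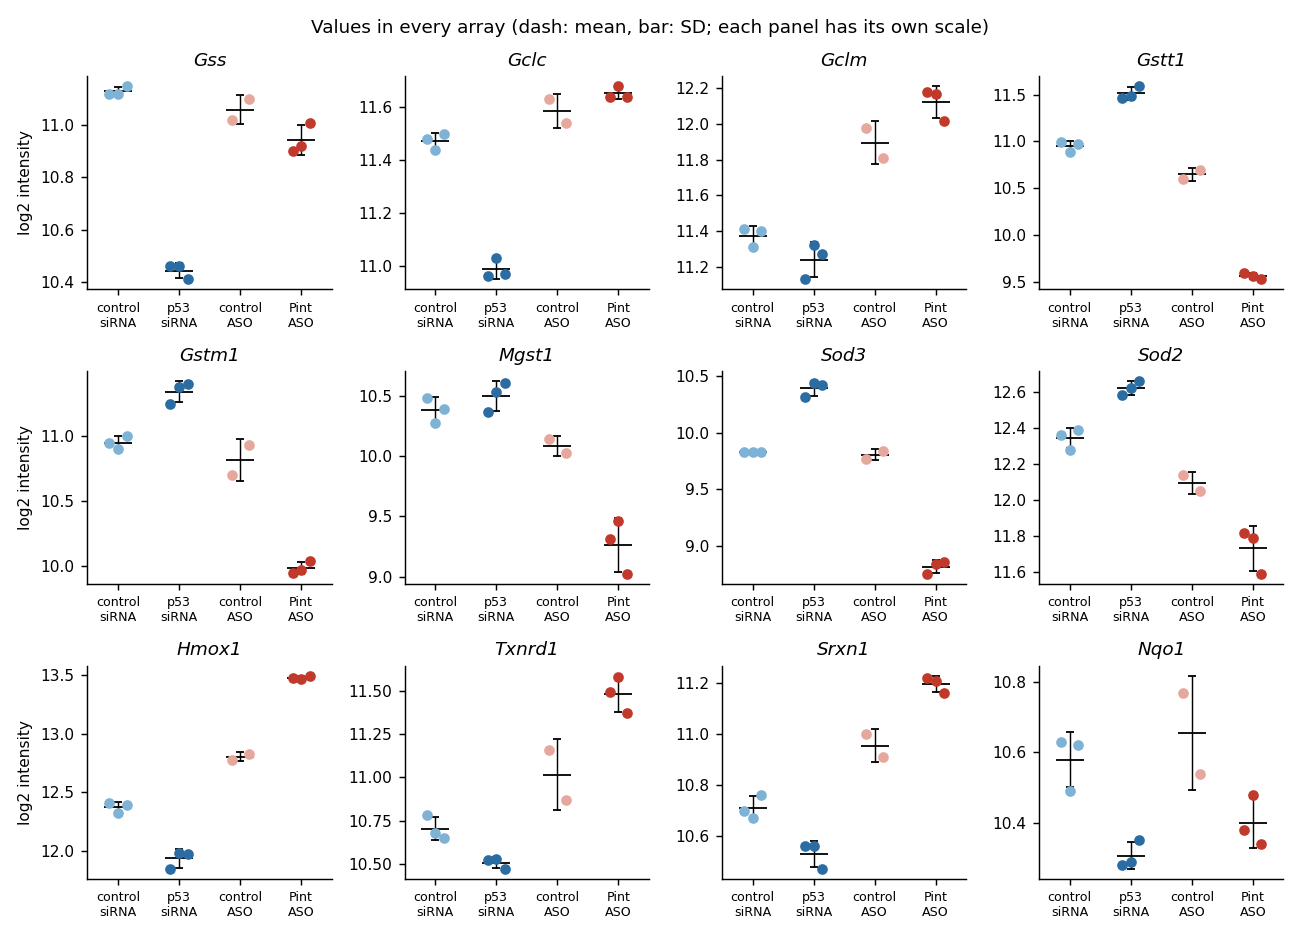
Log2 intensity of 12 of the genes in each of the 11 arrays (points) by group (x axis), with group means as dashes and SD as bars, each panel on its own scale. In Gstt1, Gstm1, Sod2 and Sod3 p53 siRNA is highest and Pint ASO lowest, and in Hmox1 and Srxn1 the order is turned.

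Whether Pint ASO and p53 siRNA acted differently on a gene was tested directly, as the difference between their log2 changes. Over all probe sets 18.5% were called in this difference, 9.15% higher and 9.4% lower with Pint ASO than with p53 siRNA. Of the 38 genes 7 were higher and 14 lower. Those furthest down were Gstt1 (-1.65, SE 0.08, adjusted p = 4.53e-06), Sod3 (-1.54, SE 0.08, adjusted p = 4.53e-06), Gstm1 (-1.22, SE 0.10, adjusted p = 6.2e-05) and Gstk1 (-1.11, SE 0.14, adjusted p = 0.000527). They were followed by Gstm5 (-0.96, adjusted p = 0.000797), Mgst1 (-0.93, adjusted p = 0.00435) and Gstm2 (-0.73, adjusted p = 0.00145). On the other side stood Hmox1 (1.10, SE 0.07, adjusted p = 1.94e-05), which had the largest positive difference of the 38. Genes called in opposite directions were Gstm1, Gstt1, Sod2 and Sod3, which rose with p53 siRNA and fell with Pint ASO, and Srxn1 and Hmox1, which did the reverse. Only Mgst2 and Nqo1 were called lower in both, and 14 of the 38 genes were called in neither. How often all probe sets were called in both knockdowns, or in opposite directions, was not counted, so these joint counts have no background.

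**Figure D3:**
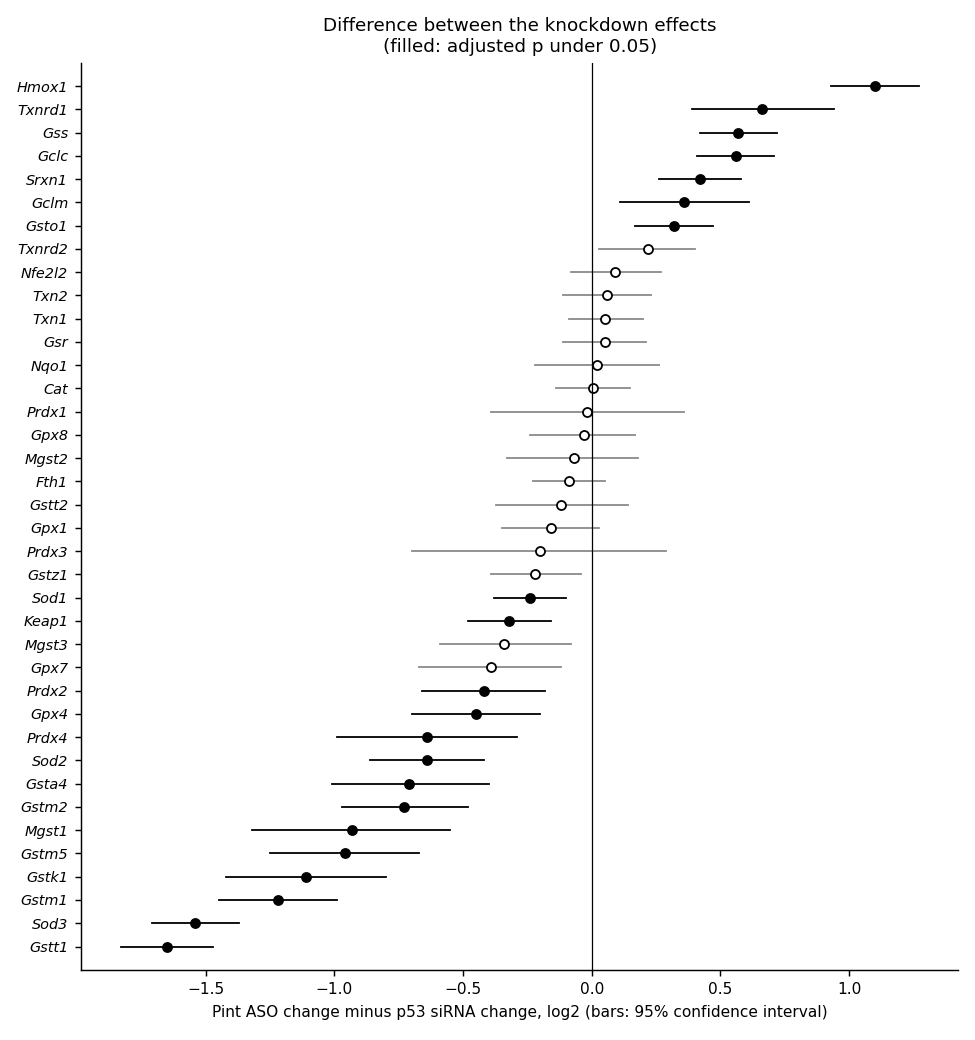
Difference between the log2 change with Pint ASO and that with p53 siRNA (x axis) for each of the 38 genes (y axis, sorted), with 95% confidence intervals and filled points for adjusted p under 0.05. Gstt1 at -1.65 and Hmox1 at 1.10 mark the ends.

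Some of these genes differed between the control groups. Between control ASO and control siRNA 3 of the 38 genes were higher and 1 lower, where 4.02% of all probe sets were called (2.29% higher and 1.73% lower). Gclm was higher by 0.52 (SE 0.08, adjusted p = 0.00977), Hmox1 by 0.43 (SE 0.06, adjusted p = 0.00454) and Srxn1 by 0.25 (SE 0.05, adjusted p = 0.0373), and Gstt1 was lower by 0.30 (SE 0.06, adjusted p = 0.0268). The rise of Hmox1 and Srxn1 with Pint ASO was thus measured on top of a higher control. At an unadjusted p under 0.05, control ASO was lower for 3 of 9 cytosolic and mitochondrial and 2 of 3 microsomal transferases. It was also lower for 2 of 4 glutathione peroxidases, 1 of 4 peroxiredoxins and 1 of the 4 superoxide dismutases and catalase. It was higher for 2 of 5 thioredoxin genes, 1 of 4 glutathione synthesis genes and 1 of 5 NRF2 genes. Prdx4 gave -0.48 (adjusted p = 0.0543), Mgst2 -0.33, Mgst1 -0.30, Gstk1 -0.28 and Sod2 -0.25. The control ASO arrays enter both this comparison and that of Pint ASO, and the type of oligonucleotide cannot be told apart from other differences between the siRNA and ASO arrays. None of the 4 calls held in every alternative. The call of Gclm was lost without control ASO replicate 1 (adjusted p = 0.0831), that of Gstt1 without control siRNA replicate 1 or 3 or either control ASO array, and that of Srxn1 in 10 of the 11 fits without 1 array.

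NRF2 binds antioxidant response elements, and the promoters of the genes were read for their core, in windows from 250 bases before to 50 after the start (RefSeq, mouse build GRCm38.p6). A window was found for 33 of the 40 genes, and none for Gclc, Gsr, Gsta4, Gstt2, Prdx6, Sod3 and Hmox1. The core TGACNNNGC, on either strand, lay in the windows of 8 genes, namely Gclm, Gstm5, Mgst1, Nfe2l2, Prdx1, Sod1, Srxn1 and Txnrd1, against 14% of all 27025 genes with a window (12.4% of all 32851 windows). The looser TGANNNNGC, which contains it, lay in those of 13 genes, against 45% of all genes (41.3% of windows). AP-1 sites, TGANTCA, which can overlap the looser core, lay in those of Gstm5, Mgst2, Prdx1 and Srxn1, against 8.97% of all genes (7.81% of windows). GC boxes, GGGCGG, lay in those of 28 genes, against 38.2% of all genes (35.7% of windows). CCAAT lay in those of 15 genes, against 41.1% of all genes, and the E-box CACGTG in that of 1, against 8.09%. Some genes have more than 1 window.

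The 250 bases before the start are shown for Txnrd1 and Srxn1, which rose with Pint ASO, for Gclm, and for Gstm5 and Mgst1, which fell. These genes were picked from the 8 whose windows hold the stricter core, and Nfe2l2, Prdx1 and Sod1 are not shown. The stretches are written 5′ to 3′ with each match to TGANNNNGC on either strand in capitals. In Srxn1 the stricter core itself lies past the start and is not shown. Txnrd1 has 3 windows and Mgst1 has 2, and the window with the most such matches is shown, the first where equal.
Txnrd1 (chr10:82858956-82859205, plus strand): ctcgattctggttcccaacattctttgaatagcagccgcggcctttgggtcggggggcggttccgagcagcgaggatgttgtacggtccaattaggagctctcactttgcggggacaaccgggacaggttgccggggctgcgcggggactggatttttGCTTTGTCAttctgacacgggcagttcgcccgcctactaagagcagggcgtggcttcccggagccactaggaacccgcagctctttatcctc
Srxn1 (chr2:152105274-152105523, plus strand): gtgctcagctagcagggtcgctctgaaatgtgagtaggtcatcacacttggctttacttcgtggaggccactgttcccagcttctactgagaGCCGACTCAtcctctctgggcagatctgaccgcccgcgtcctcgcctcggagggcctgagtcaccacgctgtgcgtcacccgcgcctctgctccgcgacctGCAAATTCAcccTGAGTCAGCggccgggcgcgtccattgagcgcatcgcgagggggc
Gclm (chr3:122245307-122245556, plus strand): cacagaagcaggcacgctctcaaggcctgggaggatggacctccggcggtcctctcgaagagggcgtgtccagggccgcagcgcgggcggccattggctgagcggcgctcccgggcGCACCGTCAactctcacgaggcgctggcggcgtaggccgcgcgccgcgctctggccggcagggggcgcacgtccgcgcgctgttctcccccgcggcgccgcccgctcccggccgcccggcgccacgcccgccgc
Gstm5 (chr3:107895604-107895853, plus strand): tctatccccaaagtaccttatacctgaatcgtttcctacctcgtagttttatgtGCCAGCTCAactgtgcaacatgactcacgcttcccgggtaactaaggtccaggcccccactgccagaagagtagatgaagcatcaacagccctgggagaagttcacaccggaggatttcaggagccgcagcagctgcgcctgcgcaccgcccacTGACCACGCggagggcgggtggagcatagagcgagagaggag
Mgst1 (chr6:138140277-138140526, plus strand): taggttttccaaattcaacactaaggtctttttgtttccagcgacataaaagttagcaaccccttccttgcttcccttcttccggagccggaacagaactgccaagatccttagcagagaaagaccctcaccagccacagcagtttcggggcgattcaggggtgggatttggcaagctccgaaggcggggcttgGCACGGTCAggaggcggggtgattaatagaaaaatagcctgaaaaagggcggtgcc
The stricter core stood 92 bases upstream in Txnrd1, which rose with Pint ASO, and 42 and 56 in Gstm5 and Mgst1, which fell. In Gclm, called in neither knockdown, it stood at 134. In Srxn1 the stretch holds 3 looser matches. A match is a run of letters and no measure of binding.

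The same systems hold genes outside the 40. Of all probe sets, 8.96% were called lower and 7.97% higher with p53 siRNA, and 10.7% lower and 8.49% higher with Pint ASO. Of 42 other glutathione and thiol genes tested, 13 fell and 5 rose with p53 siRNA, and 16 fell and 3 rose with Pint ASO. Gpx3, the secreted peroxidase, fell in both (-1.22, adjusted p = 4.58e-06, and -1.04, adjusted p = 4e-05). With p53 siRNA it was followed by Glrx3 (-0.91) and Glrx5 (-0.54), glutaredoxins of iron-sulfur cluster handling, Gpx6 (-0.62) and Lancl1 (-0.54). With Pint ASO Gstm6 (-0.94), Gstm3 (-0.64) and Gstt3 (-0.64), relatives of the transferases above, fell, the call of Gstm3 being lost with the mean of its probe sets (adjusted p = 0.0889), while Chac1, which degrades glutathione, rose (0.84, adjusted p = 1.89e-05). Chac1 in control ASO already stood 1.01 above control siRNA. Gstt3 was also called between the control groups.

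Of 34 other NRF2-linked genes tested, 7 fell and 3 rose with p53 siRNA, and 7 fell and 7 rose with Pint ASO. Slc7a11, the cystine importer that feeds glutathione synthesis, fell by 0.40 with p53 siRNA (adjusted p = 0.00154) and rose by 0.56 with Pint ASO (adjusted p = 0.000505), and control ASO was 0.87 above control siRNA. Akr1b10 (-0.69), Akr1b8 (-0.61) and Cbr3 (-0.33), carbonyl reductases, fell with p53 siRNA and Nampt (0.49), of NAD synthesis, rose. The call of Cbr3 was lost without control siRNA replicate 1 or 3, p53 siRNA 2 or 3 or Pint ASO 1 (adjusted p 0.0509 to 0.115). With Pint ASO Ephx1, an epoxide hydrolase (-0.74), Idh1, a source of NADPH (-0.70), and Aldh3a1, an aldehyde dehydrogenase (-0.68), fell, and the glycine transporter Slc6a9 rose (0.44), for which control ASO was also 0.55 above control siRNA.

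Cysteine limits glutathione synthesis. Of 12 genes of its supply and use tested, Slc7a11 again among them, 2 rose and 2 fell with p53 siRNA, and 5 rose and 2 fell with Pint ASO. Cth, which makes cysteine from cystathionine, rose by 1.04 with Pint ASO (SE 0.09, adjusted p = 0.000119), as did the neutral amino acid carriers Slc1a4 (0.59) and Slc1a5 (0.36). Slc1a4 also rose with p53 siRNA (0.34), where Cbs, the enzyme before Cth, fell (-0.46). Cdo1, which burns cysteine, rose with p53 siRNA (0.97, adjusted p = 1.66e-05) and fell with Pint ASO (-0.63, adjusted p = 0.000569), the same opposed order as Gstt1 and Sod3. Cdo1 and Slc1a5 were also called between the control groups.

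**Figure D4:**
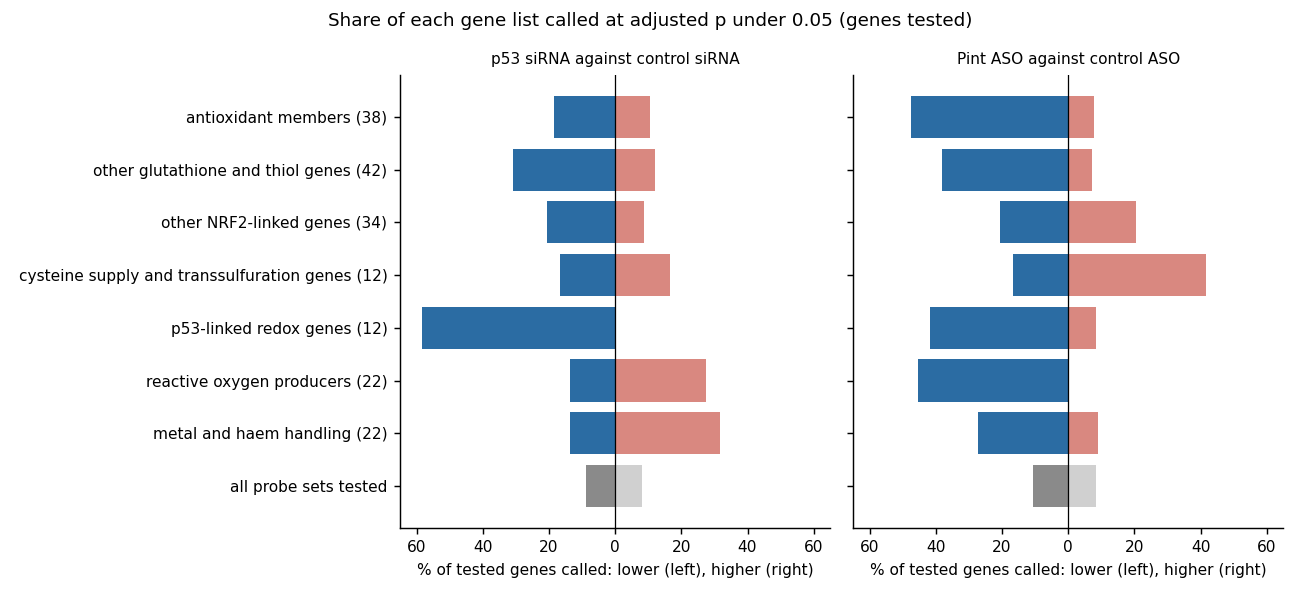
Share of tested genes (x axis, percent) called lower (left bars) and higher (right bars) in each list (y axis, with the number tested), for p53 siRNA and for Pint ASO, with all probe sets tested in grey at the bottom. With Pint ASO 47.4% of the measured antioxidant genes were lower, against 10.7% of all probe sets.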

How the data were processed

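RNA of 11 samples of p53 LSL/LSL MEFs was hybridised by the authors to Affymetrix mouse arrays, whose model the methods name in 2 ways. Per the submitters' processing notes and the methods, the deposited values are log2 intensities after RMA, which corrects background, normalises between arrays and sums probes to probe sets. They were used as deposited, with array medians of 7.31 to 7.38. Gene names came from the platform annotation, in which 21640 probe sets have 1 symbol, 1321 several and 11799 none.

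Group means of all 11 arrays were fitted with limma 3.58.1 in R 4.3.3 (lmFit, eBayes), with contrasts for each knockdown, their difference and the controls. Probe sets above a log2 value of 6 in 2 or more arrays of some group were tested, and adjusted p was called under 0.05. A gene with several probe sets is given by the one with the highest mean. The fit was tested on simulated data for the p53 siRNA contrast only. The contrasts with the ASO arrays were not simulated. Array number, 2 or 3 a group, limits the precision. The study filtered in every group and selected genes by B, given as over 3, combined with fold-change cutoffs set for each contrast. Its filter and B over 3 without a fold-change cutoff were tried as alternatives. Other filters, scalings, priors and fits, replicate blocks and leaving out each array were tried too.

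The genes and lists were chosen with earlier results of these data known. Values in every array are given for the 10 called genes with the largest change in each knockdown and for the 8 largest differences, and up to 5 called genes of each other list are named. Values of further genes were chosen after they were seen.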

Additional observations from a re-analysis of the deposited data

Results flagged for a closer look

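Between the knockdowns, 21 of the 38 measured genes had effects that differed by the tested difference itself (Pint ASO change minus p53 siRNA change, log2, adjusted p under 0.05). Differences below 0 were found for the transferases Gstt1 (-1.65), Gstm1 (-1.22), Gstk1 (-1.11), Gstm5 (-0.96), Mgst1 (-0.93), Gstm2 (-0.73) and Gsta4 (-0.71). Of the superoxide dismutases Sod3 gave -1.54, Sod2 -0.64 and Sod1 -0.24. Prdx4 gave -0.64, Gpx4 -0.45, Prdx2 -0.42 and Keap1 -0.32. Differences above 0 were found for Hmox1 (1.10), Txnrd1 (0.66), Gss (0.57), Gclc (0.56), Srxn1 (0.42), Gclm (0.36) and Gsto1 (0.32). With B over 3 as the rule 7 of these 21 calls remained, namely Gclc, Gss, Gstm1, Gstt1, Gstk1, Sod3 and Hmox1. In the other alternatives 16 held in all. The call of Gclm was lost in 13 of 20 alternatives, Sod1 in 9, Prdx2 in 6, Prdx4 in 2 and Gpx4 in 1. Among them, leaving out 1 array ended the call of Gclm in 9 of 11 fits, of Sod1 in 6, of Prdx2 in 4, of Prdx4 without control ASO replicate 1 (adjusted p = 0.0776) and of Gpx4 without control ASO replicate 2 (adjusted p = 0.0784). No group has the size for the test of single outlying arrays.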

How the results depend on the processing

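No change of a called gene reversed under any alternative. Of the calls 7 of 11 with p53 siRNA (Gclc, Gss, Gstm1, Gstt1, Gsto1, Sod3 and Hmox1) and 10 of 21 with Pint ASO (Gsta4, Gstm1, Gstm2, Gstm5, Gstt1, Gstk1, Gstz1, Mgst1, Sod3 and Hmox1) held in every alternative but the B rule. With B over 3 as the call, the higher and lower counts were 2 and 3 with p53 siRNA, 1 and 6 with Pint ASO, 3 and 4 for the difference, and 1 and 0 for the controls, since B over 3 is a stricter rule. Fitting only the groups compared, with fewer arrays to estimate the spread, left 1 higher and 11 lower with Pint ASO, and 0 and 0 for the controls. Centring the arrays on the median left 4 lower with p53 siRNA and 0 lower for the controls. The latter count, 1 as reported, was 2 with the filter of the study, 2 after quantile normalization, 2 with a trended robust prior and 3 over probe sets with 1 symbol, and the cause was not tested. Leaving out 1 array gave 3 to 5 higher and 4 to 7 lower with p53 siRNA, 2 to 3 and 11 to 18 with Pint ASO, 6 to 7 and 11 to 15 for the difference, and 1 to 3 and 0 to 2 for the controls.

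A replicate block by title number gave 4 higher and 5 lower with p53 siRNA, 3 and 14 with Pint ASO, 6 and 11 for the difference, and 1 and 0 for the controls, and a replicate block by description number 5 and 5, 3 and 15, and 6 and 14, with 0 lower for the controls. The numbers were not taken as pairs. Deviations of same-numbered siRNA arrays correlated at -0.284 to -0.0371. The ASO arrays carry other numbers in titles (-0.42 and -0.0463) than in descriptions (0.375 and 0.42). Deviations of the 2 control ASO arrays from their mean mirror each other, so -0.42 and 0.42 are 1 value with its sign turned. Pairing of the ASO arrays is unsettled with 2 controls.

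With 2 control ASO arrays, small changes with Pint ASO rest on the pooled spread.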

Other observations

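Several genes of a list drawn up as p53-linked redox genes fell with p53 siRNA. Whether each gene of that list ties p53 to redox control was not tested. Of 12 tested, 7 fell (58.3%, against 8.96% of all probe sets). Because the list was chosen with earlier results of these data known, this share is a description and no test. Among them were Pltp (-1.21), the proline pathway enzyme Aldh4a1 (-1.07), Sesn2 (-0.62), Trp53inp1 (-0.55) and Alox12 (-0.39). The call of Alox12 was lost in 6 of the 11 fits without 1 array. With Pint ASO 5 fell and 1 rose (41.7% and 8.33%, against 10.7% and 8.49% of all probe sets). Sesn3 (-0.71), Aldh4a1 (-0.44), Sesn1 (-0.43) and the metalloreductase Steap3 (-0.42) fell, and Sesn2, a stress-induced sestrin, rose (0.57). The call of Sesn1 was lost without control ASO replicate 1 (adjusted p = 0.131). Sesn2 and Trp53inp1 were also called between the control groups.

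Some enzymes that produce reactive oxygen or nitrogen species rose with p53 siRNA and fell with Pint ASO. Of 22 tested, 6 rose (27.3%) and 3 fell (13.6%) with p53 siRNA, against 7.97% and 8.96% of all probe sets. With Pint ASO 10 fell (45.5%, against 10.7% of all probe sets) and 0 rose. Between the controls 8 of the 22 were lower in control ASO at an unadjusted p under 0.05. Nos2, inducible nitric oxide synthase, changed by 1.05 and -0.99, Cybb, the catalytic subunit of the phagocyte NADPH oxidase, by 0.64 and -0.73, and the monoamine oxidase Maob by 0.60 and -0.78. Smox (-0.53) and Duox1 (-0.44) fell with p53 siRNA, and Aox1 (-0.79) and Xdh (-0.63) with Pint ASO. Of 22 genes of metal and haem handling tested, Fth1 among them, 7 rose (31.8%) and 3 fell (13.6%) with p53 siRNA. With Pint ASO 2 rose (9.09%, against 8.49% of all probe sets) and 6 fell (27.3%, against 10.7%). The metalloreductase Steap4 changed by 1.38 and -1.79 and the ferroxidase Cp by 0.32 and -0.97, both also lower in control ASO than in control siRNA (-0.62 and -0.35). With p53 siRNA the transferrin receptor Tfrc (0.54) and the iron carrier Slc11a2 (0.32) rose. The haem exporter Flvcr1 fell with p53 siRNA (-0.37) and rose with Pint ASO (0.31). The zinc exporter Slc30a1 (0.38) rose with Pint ASO and ferrochelatase, Fech (-0.28), fell. The Pint ASO calls of Flvcr1 and Fech were lost without single ASO arrays, that of Fech without either control array.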
